A study of Homo sapiens with 8 samples.

Results

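Mitochondrial ribosomal proteins were taken as the rows of the authors' deposited table of translation efficiency whose gene name begins with MRPL or MRPS and does not end in P and a number. The rule found 78 of the 12109 transcripts. Of these, 77 are messages for proteins, with 48 named MRPL for the large subunit and 29 named MRPS for the small subunit. The remaining row, MRPL20-AS1, is an antisense RNA and encodes no subunit. GENCODE 29 annotates 78 protein-coding genes with such names, and 1 of them, MRPL23, was not analysed here.

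The study used human hepatic stellate cells, liver cells that make scar matrix when activated, labelled as a cell line and grown in DMEM with serum. The control group received a control silencing RNA (dsi-control, genotype labelled WT) and the knockdown group one against LARP6 (dsiLARP6, genotype labelled LARP6 kd), an RNA-binding protein known for binding collagen messages. RNA-seq and ribosome profiling were done on each, in 4 groups of 2 samples and 8 samples in all. Ribosome profiling sequences the RNA pieces that ribosomes shield from nuclease, and translation efficiency is footprints relative to RNA. The labels name no donor, clone or LARP6 level. They leave unsaid whether the 2 samples of a group came from separate cultures, so the spread behind the p-values may be technical. Of 10 markers of stellate cells, 8 were listed in the table, with DES and LRAT not listed. Markers of other liver cells were fewer, with 2 of 4 for hepatocytes, 1 of 4 for endothelium, 1 of 4 for leukocytes and Kupffer cells and 2 of 3 for bile ducts.

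The mitoribosome translates the few messages of the mitochondrial genome, which encode core subunits of the respiratory chain. Its own proteins are encoded in the nucleus, made on cytosolic ribosomes and imported. Some descend from the bacterial ribosome, and others were added in the mitochondrial line. The comparison asks whether messages for these proteins were translated with another efficiency once LARP6 was silenced.

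After LARP6 silencing, 0 of the 77 messages had an adjusted p under 0.05, against 2.2% of all transcripts in the authors' deposited table (1.07% higher and 1.12% lower). At an adjusted p under 0.1 the count was also 0, against 2.81% of all transcripts there. Their log2 changes had a median of 0.06, beside 0.015 over all transcripts. Of the 77 messages 46 (59.7%) lay above 0 and 31 below, where 50.8% of all transcripts lay above 0. An unadjusted p under 0.05 was reached by 8 messages (10.4%), against 10.3% of all transcripts in the authors' deposited table, which is close to the background. Of these, 5 lay above 0, where the background is 5.46%, and 3 below, where it is 4.83%. An unadjusted p under 0.01 was listed for 1, against 4.52% of all transcripts in the authors' deposited table. The smallest adjusted p among the messages was 0.169, for MRPL42, in the authors' deposited table. The table holds no value per sample, so no standard error or interval can be given, and an effect too small or too shallowly sequenced to be called cannot be told from none.

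The changes were small for most messages. A log2 change within 0.5 of 0 was found for 59 of 77 (76.6%), against 66.7% of all transcripts and 68.6% of annotated protein-coding ones. At least a 2-fold difference either way was listed for 5 of 77 (6.49%), against 10.6% of all transcripts.

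**Figure D1:**
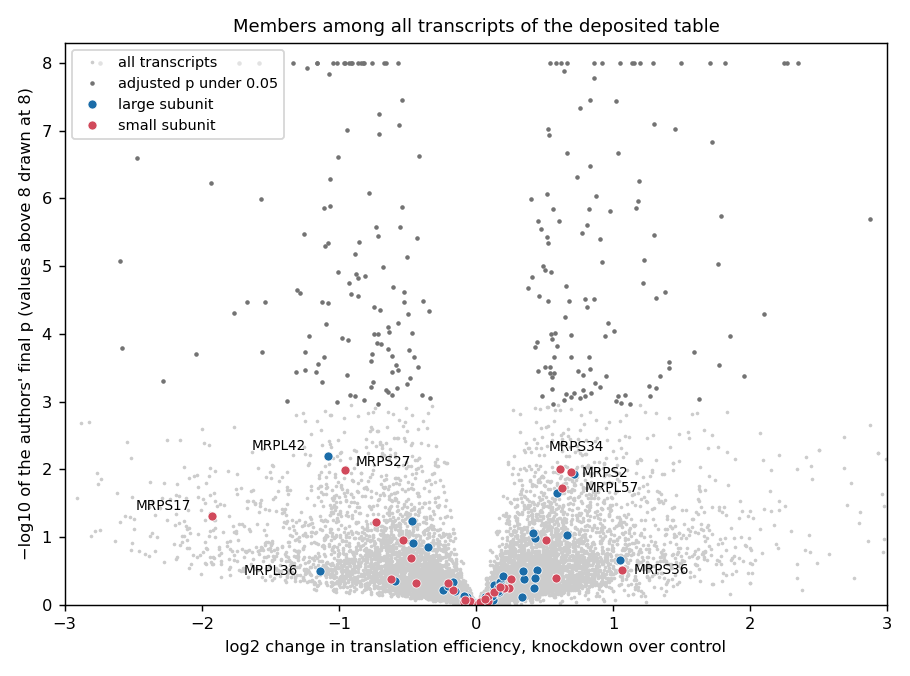
Each point is a transcript of the authors' deposited table, with its log2 change in translation efficiency (knockdown over control) on the x axis and −log10 of the final p on the y axis. Light grey points are all transcripts, dark grey points those with an adjusted p under 0.05, and blue and red points the 48 large and 29 small subunit messages, all of which lie below the dark grey points.

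The translation efficiency of most of these messages was above that of the typical transcript, in control and knockdown cells alike. Efficiencies are on a log2 scale on which the median transcript lies near 0 (0.008 in the knockdown). Control values were derived by subtracting the log2 change of the second method from the deposited knockdown efficiency. The median of the 77 messages was 0.90 in the knockdown and 0.82 in the control, so the median message had a knockdown efficiency 1.86 times that of a transcript at 0. In the knockdown 62 of 77 (80.5%) lay above 0, against 50.3% of all transcripts, and 32 (41.6%) lay above 1, against 16.9%. In the control 61 lay above 0.

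MRPL52, a protein of the large subunit that bacteria lack, had the highest efficiency of the 77 messages, with a derived control value of 2.38 and a deposited knockdown value of 2.56. MRPL47, the counterpart of a bacterial protein near the exit of the peptide tunnel, followed at 2.16 and 2.08. MRPL14, a conserved protein of the large subunit, stood at 1.39 in the control and 1.98 in the knockdown. These 3 messages lie between percentiles 95.6 and 97.7 of all transcripts in the knockdown. In the small subunit the highest knockdown values were those of MRPS12, a protein of the decoding centre, at 1.38, MRPS24 at 1.37 and MRPS34 at 1.30 in the authors' deposited table.

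At the other end, MRPS21, the counterpart of a small bacterial protein, had the lowest efficiency, −2.15 in the control and −2.76 in the knockdown. Its knockdown efficiency was thus 6.79 times below that of a transcript at 0. MRPL36, also a small protein shared with bacteria, stood at −1.15 and −2.29, and MRPS17 at −0.19 and −2.12. MRPL35 (−0.87 and −1.46) and MRPL3, a protein close to the site of peptide bond formation (−0.79 and −0.87), completed the lowest 3 of the large subunit. MRPS10 had −0.52 and −0.43. The listed efficiencies of messages for proteins of the same particle thus spanned more than 5 on the log2 scale.

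**Figure D2:**
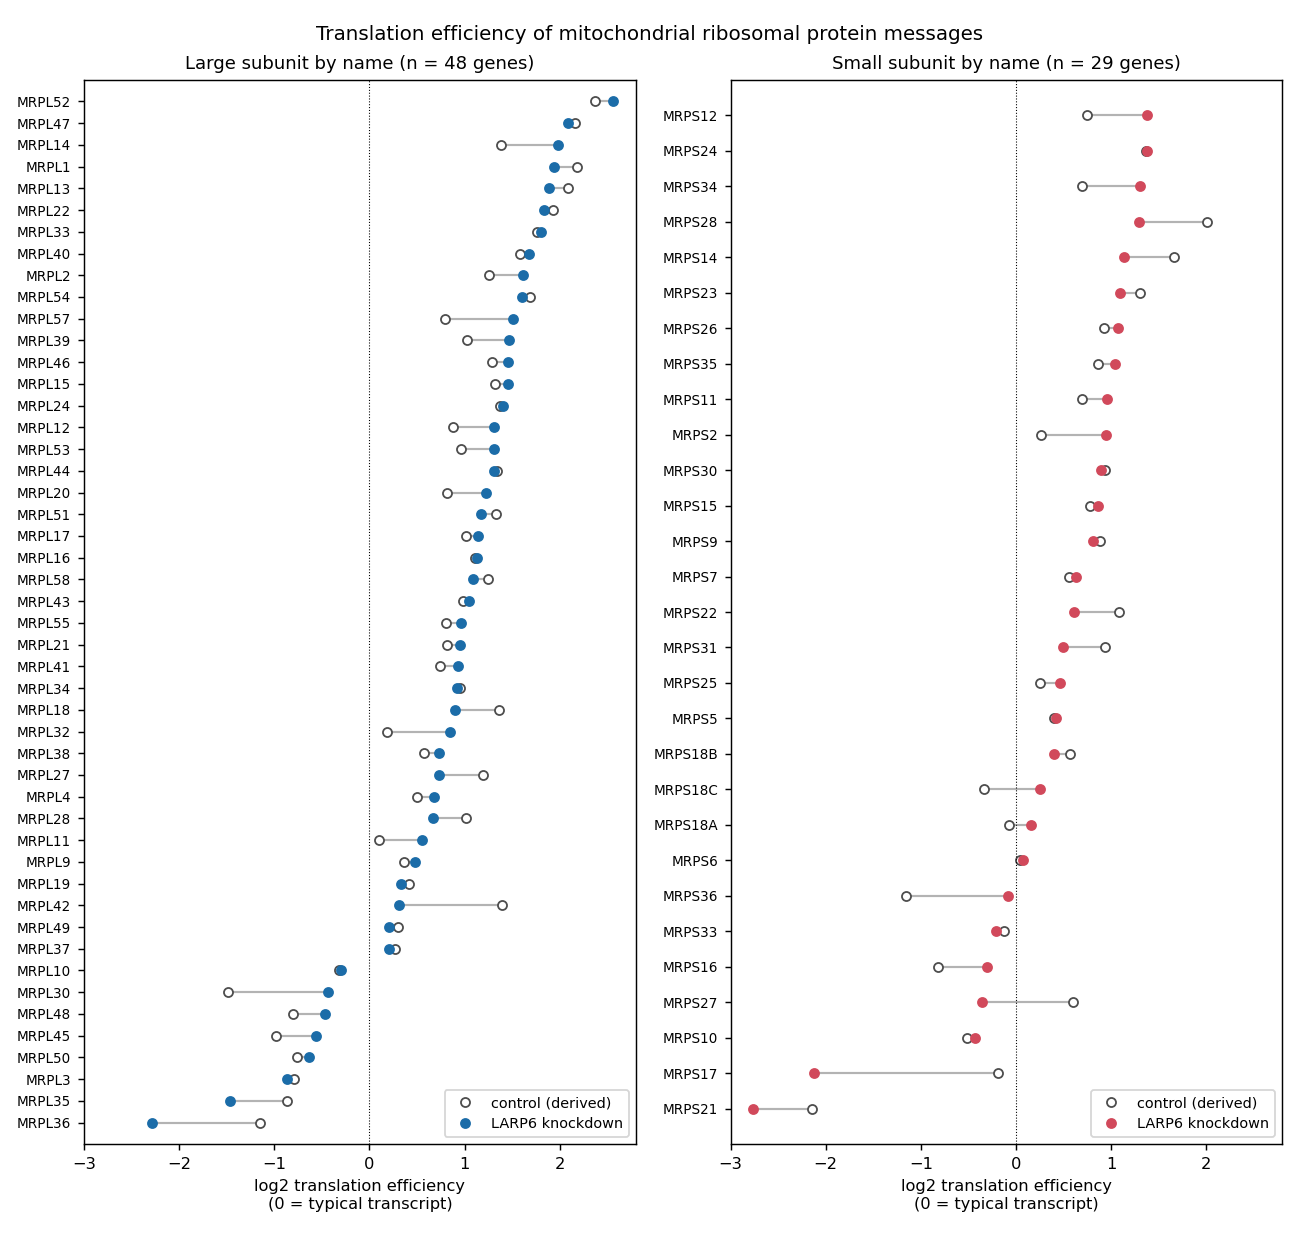
Each row is a gene, with open circles for the derived control and filled circles for the knockdown log2 translation efficiency on the x axis, where 0 is near the typical transcript. In the knockdown 40 of 48 large subunit and 22 of 29 small subunit messages lie to the right of 0, and the order runs from MRPL52 at 2.56 to MRPS21 at −2.76.

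The start codon contexts of messages at the ends of this order, and of those with the smallest p, are shown because initiation at the start codon bears on efficiency. Each runs from 9 bases before the annotated start codon to 6 bases counted from its A, from GENCODE 29 transcripts on GRCh38, on the strand of the gene. Capitals mark the base at 3 before the start codon, the start codon and the base after it.
MRPL52: ctgctcAgcATGGct
MRPS12: ggtggcAggATGTcc
MRPL36: caccacAacATGGca
MRPS21: tccaagGtcATGGca
MRPL42: tgaaacAccATGGct
MRPS34: ggacccGccATGGcg
A purine at 3 before and G just after the start codon, the usual strong context, was held by 49 of the 76 matched messages (64.5%), against 47.0% of 10284 annotated protein-coding transcripts. MRPL52 and MRPL36, which lie at opposite ends of the large subunit, both hold it. Messages with this context had a median knockdown log2 efficiency of 0.90 (n = 49) and those without it 0.95 (n = 27). Over annotated protein-coding transcripts the medians were 0.04 with it and −0.08 without. The median annotated 5′ UTR of the matched messages was 98 bases, against 185 over annotated protein-coding transcripts. An ATG upstream in the annotated 5′ UTR was present in 27 of 76 messages (35.5%), against 49.2% of annotated protein-coding transcripts. The part of 5′ UTR length in this share was not tested. The median efficiency was 0.92 with such an ATG and 0.89 without, against −0.20 and 0.12 over annotated protein-coding transcripts. A transcript start of C followed by 4 pyrimidines, the pattern known from cytosolic ribosomal protein messages, was found at the annotated 5′ end of 1 message, MRPL30 (1.32%), against 3.06% of annotated protein-coding transcripts.

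The large and the small subunit had median changes near 0. The median log2 change was 0.08 for the 48 MRPL messages (quartiles −0.09 and 0.23) and 0.03 for the 29 MRPS messages (quartiles −0.21 and 0.24), a difference of 0.046. Of the large subunit 29 messages (60.4%) lay above 0 and 19 below, and of the small subunit 17 (58.6%) and 12. Over all transcripts 50.8% lay above 0. The small subunit was more spread, with an SD across genes of 0.58 against 0.40, and 11 of 29 messages (37.9%) at least 0.5 from 0 against 7 of 48 (14.6%). The share over all transcripts was 33.3%, which the small subunit's share is near. An unadjusted p under 0.05 was listed for 5 of 29 small (17.2%) and 3 of 48 large subunit messages (6.25%), beside the 10.3% of all transcripts in the authors' deposited table. Genes are not replicates, and the difference between the subunits was not tested.

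**Figure D3:**
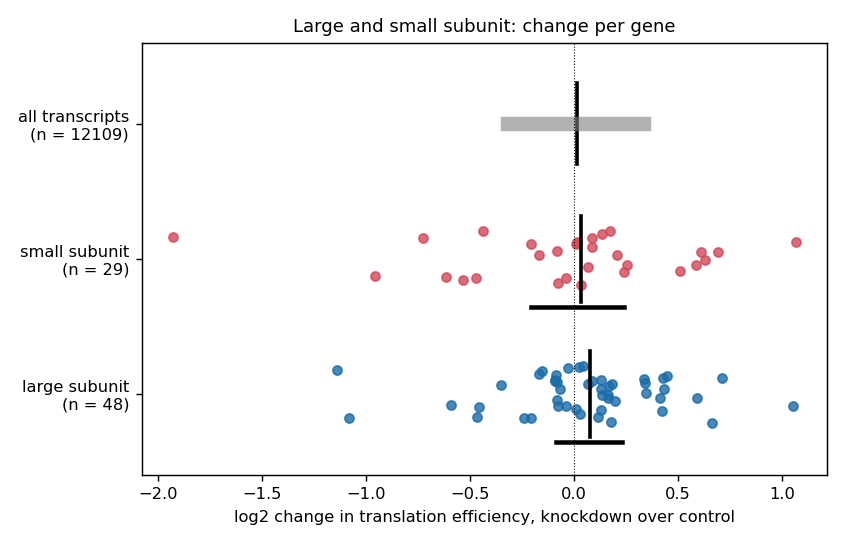
The x axis is the log2 change in translation efficiency (knockdown over control), with a point per gene for the large and the small subunit, a vertical bar at the median and a horizontal bar from the lower to the upper quartile. The top row gives the median and quartiles of all 12109 transcripts. Both subunits, grouped by name, are centred near 0, with medians of 0.08 and 0.03, and the small subunit has the wider range (−1.93 to 1.07). Its upper end is MRPS36, which by structure is in neither subunit. The small subunit by structure runs from −1.93 to 0.69.

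Among large subunit messages MRPL42, a protein that bacteria lack (chromosome 12, 93467488 to 93516213, GRCh38), had the smallest p. Its log2 efficiency was 1.39 in the control and 0.31 in the knockdown, a log2 change of −1.08 or 2.11-fold lower (p = 0.00627, adjusted p = 0.169, the authors' deposited table). Its annotated transcript has a 3′ UTR of 14992 bases, the longest of the members, and shares 282 exon bases with RN7SL737P. MRPL57, another protein without a bacterial counterpart (chromosome 13, 21176645 to 21179084), stood at 0.80 and 1.51, with a log2 change of 0.71 (p = 0.0117, adjusted p = 0.239, the authors' deposited table). MRPL14 (chromosome 6, 44113454 to 44127457) had a log2 change of 0.59 (p = 0.0223, adjusted p = 0.331, the authors' deposited table). These are the 3 large subunit messages with an unadjusted p under 0.05.

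Next in p came MRPL18 with a log2 change of −0.47 (p = 0.0586) and MRPL20 with 0.41 (p = 0.0879) in the authors' deposited table. Large listed changes were not always those with the smallest p. MRPL36 had the lowest log2 change of the large subunit, −1.14, with p = 0.318, and MRPL30 the highest, 1.05, with p = 0.22, in the authors' deposited table. MRPL35 had −0.59 (p = 0.445), and MRPL32, a protein matured by a protease of the inner membrane, 0.66 (p = 0.0933) in the authors' deposited table. MRPL36, MRPL30 and MRPL35 all have knockdown efficiencies below 0.

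In the small subunit MRPS34, particular to mitochondria (chromosome 16, 1771890 to 1773155), had the smallest p. Its log2 efficiency was 0.69 in the control and 1.30 in the knockdown, a log2 change of 0.61 (p = 0.01, adjusted p = 0.221, the authors' deposited table). MRPS2, the counterpart of a bacterial small subunit protein (chromosome 9, 135500631 to 135504672), went from 0.26 to 0.95, a log2 change of 0.69 (p = 0.0108, adjusted p = 0.232, the authors' deposited table). MRPS12 (chromosome 19, 38930548 to 38933020) had a log2 change of 0.63 (p = 0.0188, adjusted p = 0.304, the authors' deposited table). Its exons share 349 bases with SARS2, the mitochondrial seryl-tRNA synthetase, on the opposite strand.

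MRPS27, a pentatricopeptide repeat protein (chromosome 5, 72219409 to 72320261), was the message that lay above 0 in the control (0.60) and below it in the knockdown (−0.35). Its log2 change was −0.96, or 1.94-fold lower (p = 0.0102, adjusted p = 0.223, the authors' deposited table). MRPS17 (chromosome 7, 55951819 to 55956501) had the lowest log2 change of all 77 messages, −1.93 or 3.81-fold lower, but a p of only 0.0481 (adjusted p = 0.476) in the authors' deposited table. It shares 112 exon bases with NIPSNAP2 and 471 with AC092647.5 on the same strand, and the assignment of reads in shared bases is not stated in the labels or the table. MRPS28 had a log2 change of −0.73 (p = 0.0608) and MRPS21 one of −0.62 (p = 0.411) in the authors' deposited table.

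Names and places in the particle do not always match. By structure MRPS30 and MRPS18A sit in the large subunit, and MRPS36 is a subunit of the 2-oxoglutarate dehydrogenase complex. MRPS36 had the highest log2 change of the messages named MRPS, 1.07 (p = 0.311, adjusted p = 0.88), and MRPS30 one of −0.04 in the authors' deposited table. MRPS18A, MRPS18B and MRPS18C, copies of one bacterial protein, had log2 changes of 0.24, −0.17 and 0.58 and knockdown log2 efficiencies of 0.16, 0.40 and 0.25 in the authors' deposited table. MRPS18A and MRPS18C were the messages that lay below 0 in the control and above it in the knockdown. With members placed by structure, the median log2 change was 0.08 for 50 large and 0.02 for 26 small subunit messages.

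The messages were also grouped by the family naming of mitoribosomal proteins, which counts MRPS18A and MRPS18B as particular to mitochondria and MRPS18C as shared with bacteria. Large subunit proteins shared with bacteria (n = 29) had a median log2 change of 0.03 and those particular to mitochondria (n = 21) one of 0.13. In the small subunit the medians were 0.05 (n = 16) and −0.13 (n = 10). Median knockdown log2 efficiencies were 0.95 and 1.05 in the large and 0.72 and 0.55 in the small subunit, for shared and particular proteins in that order.

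In level, the large subunit stood above the small one, with a median knockdown log2 efficiency of 1.01 against 0.61 and a derived control value of 0.97 against 0.60. A knockdown value above 1 was found for 24 of 48 large and 8 of 29 small subunit messages. The number of pseudogenes moved with this level. Many mitoribosomal protein genes have pseudogene copies in the genome. GENCODE 29 names 75 of these copies after a member, counted here whether processed or not. The 43 members without a named pseudogene had a median knockdown log2 efficiency of 1.07, the 24 members with 1 or 2 had 0.45, and the 10 with 3 or more had −0.26. MRPS21 has 8, and MRPS17, MRPS31, MRPL35 and MRPL42 have 4 each. Of the 10 with 3 or more, 3 lay above 0, namely MRPL57, with 5 and an efficiency of 1.51, MRPS31 at 0.50 and MRPL42 at 0.31. Another exception was MRPL36, with 0 and −2.29.

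A named pseudogene was found for 15 of 29 small and 19 of 48 large subunit genes. Among the members without one, the medians were 1.09 for 29 large and 1.01 for 14 small subunit messages, and the difference between subunits was 0.083 in place of 0.402. Among those with 1 or 2 the large subunit stayed above the small one, at 0.85 (n = 15) against 0.40 (n = 9). With 3 or more the medians were −0.16 (n = 4) and −0.26 (n = 6), and with any number 0.48 (n = 19) and 0.16 (n = 15). The same order held over all annotated protein-coding transcripts. There the median knockdown log2 efficiency was 0.02 without a named pseudogene (n = 9430), −0.43 with 1 or 2 (n = 811) and −1.46 with 3 or more (n = 319). These groups include messages for cytosolic ribosomal proteins, whose low efficiencies are given below. The labels and the table do not state how reads that map to several places were counted, and the part of the pseudogenes in these levels was not tested. The share at least 0.5 from 0 in log2 change was 8 of 43 (18.6%) without a named pseudogene, 3 of 24 (12.5%) with 1 or 2 and 7 of 10 (70%) with 3 or more. Over all annotated protein-coding transcripts the shares were 31.3%, 28.1% and 44.5%, also highest with 3 or more.

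The messages are short. Their median coding length was 585 bases in each subunit, against 1386 over annotated protein-coding transcripts, and the median transcript length was 1397 against 3059 bases. The median 3′ UTR was shorter in the large (284 bases) than in the small subunit (569 bases), against 1036 over annotated protein-coding transcripts. Longer transcripts had lower knockdown log2 efficiency across the 76 matched messages (Spearman rho of −0.39 with transcript length, Pearson r of −0.26 with its log10) and across 10560 annotated protein-coding transcripts (rho of −0.43, r of −0.38). These correlations are across genes of the same libraries and are descriptions. In the shortest of 5 equal groups by transcript length, which holds 56 of the messages, the median was 0.95 for members and 0.69 for all coding transcripts. In the next group it was 0.89 for 8 members against 0.28. The order was the other way in the middle group, with −0.31 for 7 members against −0.05. The groups of the longest transcripts held 3 members at −0.21 against −0.30 and 2 members at 0.70 against −0.64. With coding length, the correlation among members was near 0 (rho of −0.004, r of 0.10). The labels and the table do not state over which stretch of each transcript reads were counted. The log2 change was less related to transcript length (rho of −0.03 among members). Its rho among members was −0.04 with coding length and −0.07 with 3′ UTR length. With 5′ UTR length it was 0.26 and with GC content 0.24, against −0.02 and 0.08 over annotated protein-coding transcripts.

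**Figure D4:**
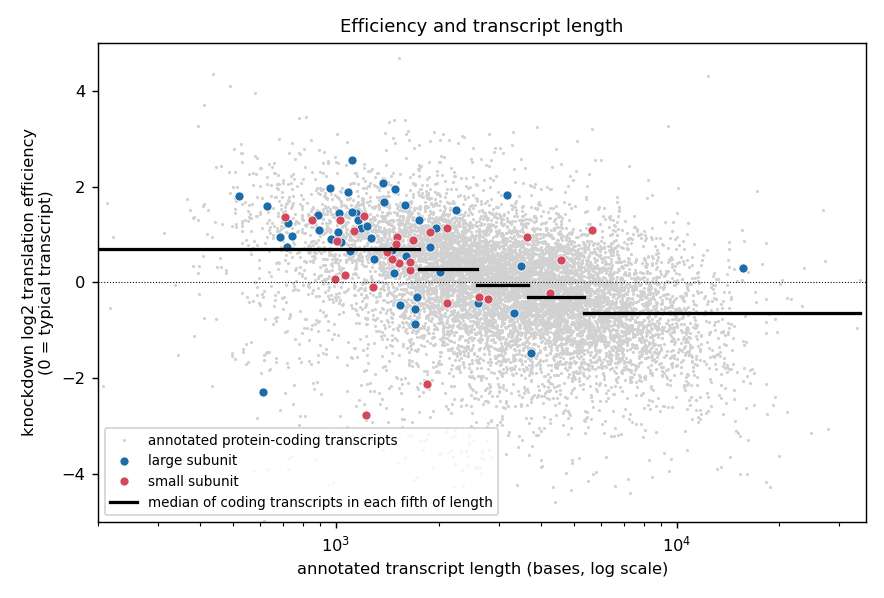
Annotated transcript length in bases is on the x axis (log scale) and knockdown log2 translation efficiency on the y axis. Grey points are annotated protein-coding transcripts, blue and red points large and small subunit messages, and black lines the median of coding transcripts in each of 5 equal groups by length, which falls from 0.69 to −0.64.

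Other genes of mitochondrial translation were read from 4 fixed lists, none of which held a call. Over all transcripts 2.2% were called, a share at which lists this short would hold few calls. Among 5 mitoribosomal proteins with other names, 0 had an adjusted p under 0.05 by the authors' deposited table, and their median log2 change was 0.11. Within them AURKAIP1 and CHCHD1 of the small subunit had log2 changes of 0.42 (p = 0.0303) and 0.27, DAP3 and PTCD3 of the small subunit 0.06 and −0.51, and GADD45GIP1 of the large subunit 0.11 in the authors' deposited table. Measured were 17 mitochondrial translation factors, 49 genes of mitoribosome assembly and mitochondrial RNA processing and 20 genes of mitochondrial aminoacyl-tRNA synthesis. Of these genes 0 passed in either direction in the authors' deposited table, against 2.2% of all transcripts. An unadjusted p under 0.05 was listed for 0, 4 and 0 of them, against 10.3% of all transcripts. Their median log2 changes were −0.14, 0.03 and 0.11, and their median knockdown log2 efficiencies, 0.10, 0.28 and 0.06, lay below the 0.90 of the ribosomal proteins.

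Most nuclear subunits of the respiratory chain are assembled with products of the mitoribosome, though those of complex II (SDHA, SDHB and SDHC) are not. These subunits, counted here with those of ATP synthase, had a median level close to that of the mitoribosomal proteins. Their 76 measured messages had a median knockdown log2 efficiency of 0.98 and a median log2 change of 0.12. A single one, 1 of 76, passed in the authors' deposited table, where 2.2% of all transcripts did. It was the complex III core protein UQCRC1, which rose in the authors' deposited table with a log2 change of 0.57 and an adjusted p of 0.0211. Cytosolic ribosomal proteins lay far lower, with a median knockdown log2 efficiency of −2.72 over 38 messages. Their median log2 change was 0.45. Among them RPL37A, a protein of the large cytosolic subunit, rose with a log2 change of 1.32 (adjusted p = 0.00252, the authors' deposited table), and 0 were called lower. Cytosolic ribosomal protein genes are known for their many processed pseudogenes. Named pseudogenes were counted for them only within the groups of all annotated protein-coding transcripts, not for this list alone.

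Messages that the mitoribosome itself translates were listed for 4 of the mitochondrial genes and did not share a direction. In the authors' deposited table the cytochrome oxidase subunit MT-CO3 fell, with a log2 change of −2.28 and an adjusted p of 0.0264, and the complex I subunit MT-ND5 rose, with a log2 change of 1.14. MT-CYB of complex III had a log2 change of −2.02 (p = 0.0258, adjusted p = 0.358) and MT-ND1 of complex I one of 0.18 with an adjusted p of 0.966 as listed in the authors' deposited table. Their knockdown log2 efficiencies ran from −7.09 to −1.85 in the authors' deposited table. MT-CO3, MT-CYB and MT-ND1 lay below all 77 mitoribosomal protein messages, whose lowest value was −2.76.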

How the data were processed

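RNA-seq and ribosome profiling of human hepatic stellate cells (4 groups of 2 samples) were analysed from 1 table of the authors' own comparison over 12109 transcripts. Reads were handled with cutadapt and Bowtie and the build was GRCh38 (hg38), per the submitters' processing notes; the program that compared efficiencies is not stated there. The authors deposited, per the file headers, a log2 change in translation efficiency from each of 2 methods and a final one, the knockdown log2 efficiency, and p-values. The deposited final p-value is the larger of both methods' p-values in each transcript (within a relative 1e-09), and the adjusted one is its Benjamini-Hochberg adjustment over the table (largest difference 6.3e-15). A message was called at an adjusted p under 0.05. No value per sample is given, so depth is unknown and the planned count models were not run.

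Control efficiencies, medians, quartiles and counts were computed here (Python 3.11.15, pandas 2.3.3, scipy 1.17.1) and tested on simulated data. The last 6 digits of transcript identifiers matched 76 of the 77 member messages to GENCODE 29 on GRCh38; MRPS22 did not match. Pseudogenes were counted by name, as a member's name followed by P and a number. Exon overlaps were taken on either strand. Named genes were, in each subunit, the 5 with the smallest p, the 4 highest and 4 lowest log2 changes, the 3 highest and 3 lowest efficiencies, the MRPS18 copies, MRPS30 and MRPS36. MRPS31 was named for its pseudogenes only. Members and lists were chosen with earlier results of these data known. The grouping by pseudogenes and by exon overlap was added after the data were seen. Some results of the related lists are not reported here.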

Additional observations from a re-analysis of the deposited data

How the results depend on the processing

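No paired analysis was possible because values per sample are lacking in the table used; count models, normalizations, filters and runs without a replicate were not run for the same reason. No member passed an adjusted p of 0.05 with either method alone, and none passed an adjusted p of 0.1. Settings that regroup or leave out members, or use a stricter threshold, keep the same adjusted p and could not add a call. An unadjusted p under 0.01 left 0 higher and 1 lower. Either method alone kept each median within 0.05. With subunits by structure, the median log2 efficiency of the large subunit was 0.96 and its difference from the small 0.343. Settings chosen after seeing the data follow. Without members that have a named pseudogene, the median log2 change of the large subunit was 0.027, 24 members lay above 0 and 19 below, 1 was lower at an unadjusted p under 0.05, and median log2 efficiencies were 1.09 and 1.01, a difference of 0.083. Without members that share exon bases with another gene, the median log2 change was 0.027 for the large and −0.063 for the small subunit, 25 members lay above 0, 3 were higher and 1 lower at an unadjusted p under 0.05, and the small subunit's median log2 efficiency was 0.55. In all, 78 of 95 recomputed values stayed within 0.05 on the log2 scale or 1.5 times in a count. Some could not have moved, as no member has an absolute log2 efficiency above 3 and leaving such members out removed none. The limit of 0.05 is also about as large as the median changes. Within it, the small subunit's median log2 change went from 0.032 to −0.017 without members that have a named pseudogene. The difference between subunits went from 0.046 to 0.089 without members that share exon bases.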

Other observations

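Rows with related names that encode no subunit gave these values. MRPL3P1, a processed pseudogene of MRPL3 left out by the rule and chosen after its values were seen, is listed in the authors' deposited table with a knockdown log2 efficiency of 1.59 and a log2 change of −0.04 (adjusted p = 0.994), while MRPL3 itself stood at −0.87 with a log2 change of −0.08. The antisense RNA MRPL20-AS1 had a knockdown log2 efficiency of −0.67 and a log2 change of −0.49 (p = 0.493, adjusted p = 0.938), and MRPL20 one of 1.23 and 0.41, in the authors' deposited table. Exons of 30 of the 77 members share bases with another annotated gene on either strand.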
